A study of Mus musculus with 10 samples.

Results

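Activator protein 1 (AP-1) is a dimer of a JUN protein with a FOS, JUN or ATF partner that binds DNA through a basic leucine zipper. Many of its genes are immediate early genes, transcribed within minutes of a growth factor, cytokine or stress signal from factors already present in the cell. The transcripts of such genes are short-lived. In myeloid cells AP-1 is known for its part in monocyte and macrophage gene expression. The genes described here are 10 factors found by symbol among the 52550 genes of the count table. They are the 3 JUN genes Jun, Junb and Jund, the 4 FOS genes Fos, Fosb, Fosl1 and Fosl2, the ATF gene Atf3, and the immediate early genes Egr1 and Ier2. All 10 had at least 10 counts over the libraries and were measured. Fos and Jun were included because they have been described elsewhere as targets of miR-139, and the question was which way they move here.

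The data are 10 RNA libraries of mouse hematopoietic stem and progenitor cells (HSPCs), enriched from C57BL/6 bone marrow and transformed by a retrovirus carrying the MLL-AF9 fusion oncogene. The cells were given the tetR-KRAB repressor, which keeps a doxycycline (DOX) inducible promoter silent until DOX is added. The labels repeat this step, in words written for i139, for the ieGFP libraries. In the 3 MLL-AF9-i139 clones DOX switches on miR-139, and each clone was sequenced without DOX and with DOX at 5 µg/mL, for 48 h in clones 1 and 2 and for 72 h in clone 3. In MLL-AF9-ieGFP DOX switches on eGFP instead, and 1 clone was sequenced without and with DOX at 48 h and at 72 h. No time is given for the untreated i139 cultures. The ieGFP libraries thus give 1 clone at different times, and in i139 the 72 h treatment cannot be told apart from clone 3 itself.

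Library totals ranged from 35133308 to 47089725 counts. The marker genes Ptprc, Kit, Fcgr3, Spi1 and Mpo and the known MLL fusion target genes Hoxa9 and Meis1 were each present with at least 2766 counts in every library, whereas the T cell gene Cd3e had at most 1 count. Itgam, the myeloid marker CD11b, had at most 3 counts. It lies almost wholly inside other annotated genes. Of 677 protein-coding genes wholly inside another gene, with no exon shared, 98.1% were at 0 counts, against 24.9% of those that overlap no gene. Mir139 was at 0 counts in every library, so the induction of miR-139 could not be read from these counts.

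The seeds of the 2 mature strands of miR-139, which lie on chr7 of GRCm38 at 101475382-101475403 and 101475418-101475439 on the plus strand, set which transcripts each strand can pair with. They are printed 5′ to 3′ from RefSeq with bases 2 to 8, the seed, in capitals.
miR-139-5p: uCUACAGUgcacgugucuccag
miR-139-3p: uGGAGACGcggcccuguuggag

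A match to the miR-139-5p seed was found in the longest annotated 3′ UTR of 2 factors, Jun and Fos, and a match to the miR-139-3p seed in that of Fosb, Fosl2 and Egr1. No match lay in the 3′ UTR of Fosl1, Junb, Jund, Atf3 or Ier2. For comparison, 22.3% of 14603 genes held a miR-139-5p match and 17.2% a miR-139-3p match. The sites are shown in 30-base windows because they are the stretches of these transcripts that each strand could pair with, with the matching bases in capitals. The Jun site, at chr4:95049879-95049908 on the minus strand in the single exon of the gene, is an 8-base match. The Fos site, at chr12:85476984-85477013 on the plus strand in exon 4 of 4, is a 7-base match. The Fosl2 site lies at chr5:32154444-32154473 on the plus strand and the Fosb site at chr7:19303027-19303056 on the minus strand, both matches to the shorter seed of bases 2 to 7 followed by A.
Jun, miR-139-5p: ctgcaatagagACTGTAGAttgcttctgta
Fos, miR-139-5p: tatatccatgtACTGTAGtccttcagcgtc
Fosl2, miR-139-3p: gggagtcgttgGTCTCCAccagttttgtta
Fosb, miR-139-3p: acttccaacatGTCTCCActctcaatgact

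The factors differed widely in level before treatment. Levels between genes are given as CPM (read counts scaled to a common library total) per kilobase of exons, as the mean of the 3 untreated i139 clones with the SD. Jund was highest at 37.1 ± 1.72, followed by Ier2 at 33.9 ± 2.99, Junb at 13.8 ± 1.52 and Jun at 6.48 ± 0.926. Below them came Fosl1 at 2.55 ± 0.711, Fosl2 at 0.644 ± 0.150, Fos at 0.396 ± 0.155, Atf3 at 0.187 ± 0.105, Egr1 at 0.0735 ± 0.0392 and Fosb at 0.0302 ± 0.0226. The ranges of the clones overlapped between Jund and Ier2, between Fosl2 and Fos, and between Atf3 and Egr1, although within each of the 3 untreated clones the order was the one given. In untreated ieGFP at 72 h Ier2 stood above Jund, at 44.4 against 41.2. Most of the exon length of Jund and of Fosl1 lies inside genes of the opposite strand, as given further on. Reads lost or gained there would shift their levels, which are uncertain for that reason. Fos, Fosb, Atf3 and Egr1 were thus near the floor of detection, with at most 66, 15, 53 and 32 counts in a library. The inducible genes Ier2, Junb and Jun were not, with at least 2057, 1198 and 423 counts in every library. Jund, which is known to be expressed without a stimulus, had at least 1646.

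In the comparison of all 3 i139 clones with and without DOX, none of the 10 factors passed an adjusted p under 0.05 (edgeR quasi-likelihood test, Benjamini-Hochberg), where 0.0624% of all genes tested did. At an unadjusted p under 0.05 there were 2 factors, Fosl2 and Atf3, where 20.6% of all genes were. DESeq2, which gave no adjusted p for Fosb and Egr1, also called 0 factors (8.09% of genes called), and so did the fit with the clone as a block (12.4% of genes). Of the 10 fold changes 9 were above 0, with a median of 0.42 on the log2 scale against 0.01 for all genes. In 6 of the 10 factors clones 1 and 2 changed one way and clone 3 the other, a pattern seen in 23.0% of all genes. Fos is one of them with next to no change in clone 1.

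**Figure D1:**
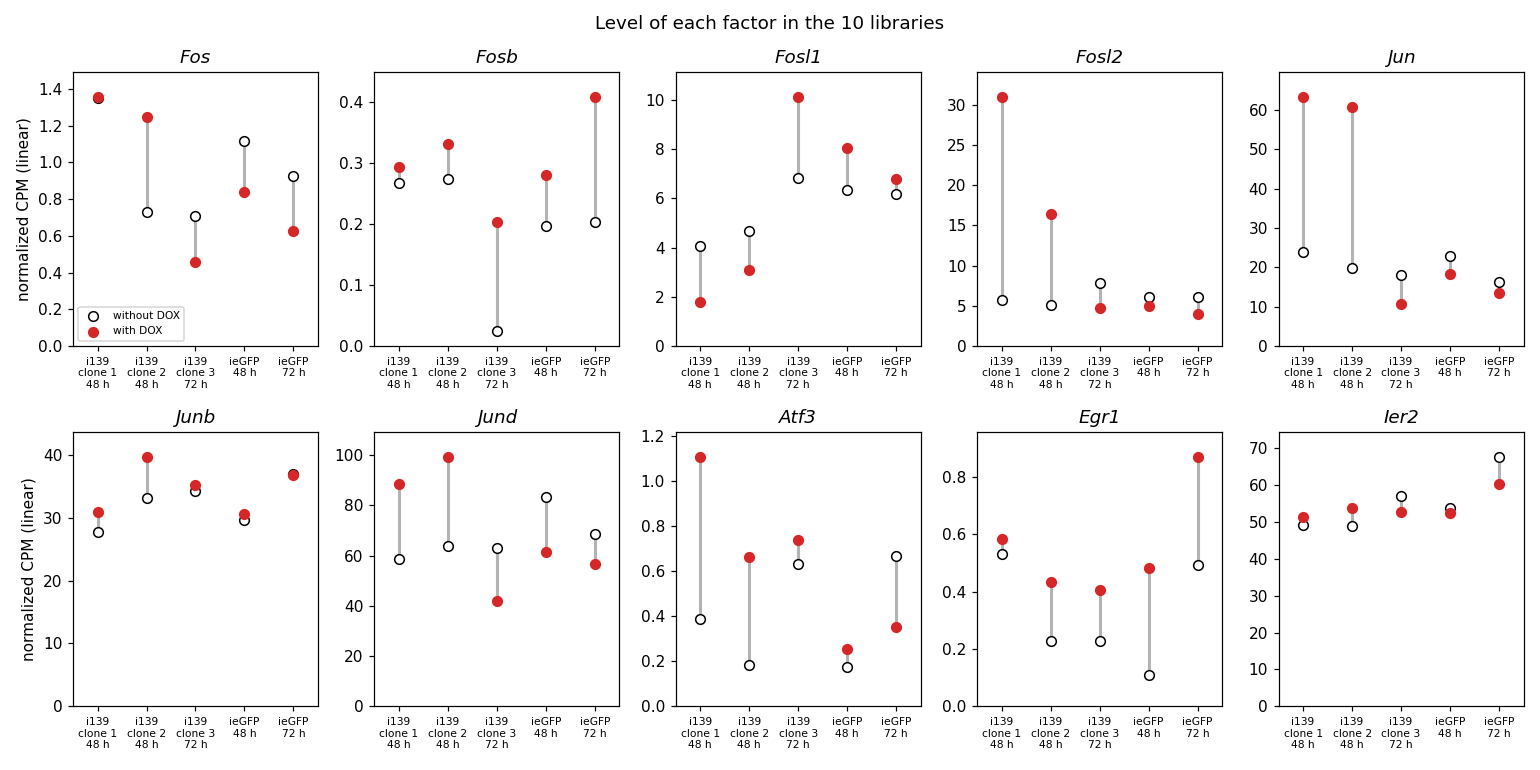
Normalized CPM of each factor (linear axis from 0) in the 10 libraries, without DOX (open) and with DOX (filled), by clone and time. Fosl2, Jun and Jund stood higher with DOX in i139 clones 1 and 2 and lower in clone 3 and in both ieGFP pairs, and Fosl1 showed the opposite pattern.

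Jun, on chr4:95049034-95052222 (minus strand), encodes the founding JUN subunit, the strongest activator of the family. In CPM, Jun went from 23.9 without DOX to 63.4 with it in clone 1 and from 19.9 to 60.9 in clone 2. In clone 3 it went from 18.2 to 10.7. In ieGFP it went from 22.8 to 18.3 at 48 h and from 16.3 to 13.6 at 72 h. The treated libraries of clones 1 and 2 thus lay far above the other 8, and the treated library of clone 3 was the lowest of all 10. Over the 3 clones the log2 fold change of Jun was 1.14 with a standard error of 0.54 and an adjusted p of 0.276 (edgeR, n = 3 clones). Without clone 3 it was 1.52 with a standard error of 0.11 and an adjusted p of 0.0003. Without clone 1 it was 0.92 and without clone 2 it was 0.83, with adjusted p of 0.744 and 0.783 (edgeR).

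Jund, on chr8:70698949-70700616 (plus strand), encodes the JUN subunit of resting cells, which can restrain proliferation. Its CPM went from 58.5 to 88.5 in clone 1, from 63.8 to 99.3 in clone 2 and from 63.1 to 41.8 in clone 3. In ieGFP it went from 83.2 to 61.3 at 48 h and from 68.6 to 56.7 at 72 h. The pattern was that of Jun at a smaller size, with the treated library of clone 3 again the lowest. The log2 fold change of Jund was 0.32 over the 3 clones (edgeR adjusted p = 0.545) and 0.64 without clone 3 (edgeR adjusted p = 0.0041).

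Junb, on chr8:84974484-84978718 (minus strand), encodes a JUN subunit that often opposes Jun. Its CPM lay between 27.7 and 39.6 in all 10 libraries. The largest single change was from 33.2 to 39.6 in clone 2, and the log2 fold change over the 3 clones was 0.16 (edgeR adjusted p = 0.536). The i139 groups overlapped.

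Fosl2, on chr5:32135801-32157842 (plus strand), encodes FRA-2, a FOS protein without the strong activation domain of Fos. Its CPM went from 5.78 to 31.0 in clone 1 and from 5.06 to 16.4 in clone 2. In clone 3 it went from 7.86 to 4.67. In ieGFP it went from 6.14 to 5.02 at 48 h and from 6.15 to 4.03 at 72 h. Apart from the 2 treated libraries of clones 1 and 2, all libraries lay below 8 CPM. The log2 fold change was 1.49 with a standard error of 0.57 and an adjusted p of 0.196 over the 3 clones (edgeR), and 2.15 with an adjusted p of 0.0025 without clone 3.

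Fosl1, on chr19:5447547-5455946 (plus strand), encodes FRA-1, the other FOS protein that lacks that domain. Its CPM went from 4.06 to 1.80 in clone 1 and from 4.70 to 3.08 in clone 2, and from 6.82 to 10.1 in clone 3. In ieGFP it went from 6.36 to 8.06 at 48 h and from 6.18 to 6.80 at 72 h. Fosl1 was thus the mirror image of Fosl2, and its treated library was the lowest of all in clone 1 and the highest of all in clone 3. The log2 fold change was −0.05 over the 3 clones (edgeR adjusted p = 0.974) and −0.83 without clone 3 (edgeR adjusted p = 0.087).

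Fos, on chr12:85473890-85477273 (plus strand), encodes the classical partner of Jun. Fos was measured with few reads, from 18 to 66 counts per library. Its CPM went from 1.35 to 1.36 in clone 1, from 0.729 to 1.25 in clone 2 and from 0.710 to 0.457 in clone 3. In ieGFP it went from 1.12 to 0.842 and from 0.928 to 0.626. The log2 fold change of Fos was 0.15 with a standard error of 0.45 over the 3 clones (edgeR adjusted p = 0.888), within the spread between the clones. Fosb, on chr7:19302696-19310051 (minus strand), encodes another strong FOS subunit and had between 1 and 15 counts per library. In CPM it went from 0.266 to 0.292, from 0.274 to 0.331 and from 0.0253 to 0.203 in clones 1 to 3, and from 0.197 to 0.281 and from 0.203 to 0.408 in ieGFP. Fosb was thus higher with DOX in all 5 pairs, with log2 fold changes of 0.53 in i139 (edgeR adjusted p = 0.674) and 0.77 in ieGFP (edgeR adjusted p = 1). Its lowest library was untreated clone 3, with 1 count and an exact 95% Poisson interval up to 5.57 counts, which sets the large ratio of that clone.

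Atf3, on chr1:191170296-191218039 (minus strand), encodes a stress-induced partner of JUN proteins that often acts as a repressor. Its CPM went from 0.389 to 1.11 in clone 1, from 0.182 to 0.661 in clone 2 and from 0.634 to 0.737 in clone 3. In ieGFP it went from 0.175 to 0.255 at 48 h and from 0.667 to 0.354 at 72 h. Atf3 was the only factor of the 10 whose treated i139 libraries all lay above the untreated ones. Such a separation, in either direction, was found in 24.9% of all genes. These levels rest on 8 to 53 counts per library. The log2 fold change was 1.08 with a standard error of 0.45 (edgeR adjusted p = 0.225), and 1.64 without clone 3 (edgeR adjusted p = 0.0441).

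Egr1, on chr18:34859823-34864984 (plus strand), encodes a zinc finger factor induced through MAP kinase signalling. It had 5 to 32 counts per library and, like Fosb, was higher with DOX in all 5 pairs, the ieGFP control included. In CPM it went from 0.533 to 0.585, from 0.228 to 0.432 and from 0.228 to 0.406 in i139 clones 1 to 3, and from 0.110 to 0.485 and from 0.493 to 0.870 in ieGFP. The change was 0.52 in i139 (edgeR adjusted p = 0.509) and 1.22 in ieGFP (edgeR adjusted p = 1). Ier2, on chr8:84661331-84662852 (minus strand), encodes a small nuclear immediate early protein. Its CPM lay between 48.9 and 67.6 in all libraries, with a log2 fold change of 0.04 and a standard error of 0.10 in i139.

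**Figure D2:**
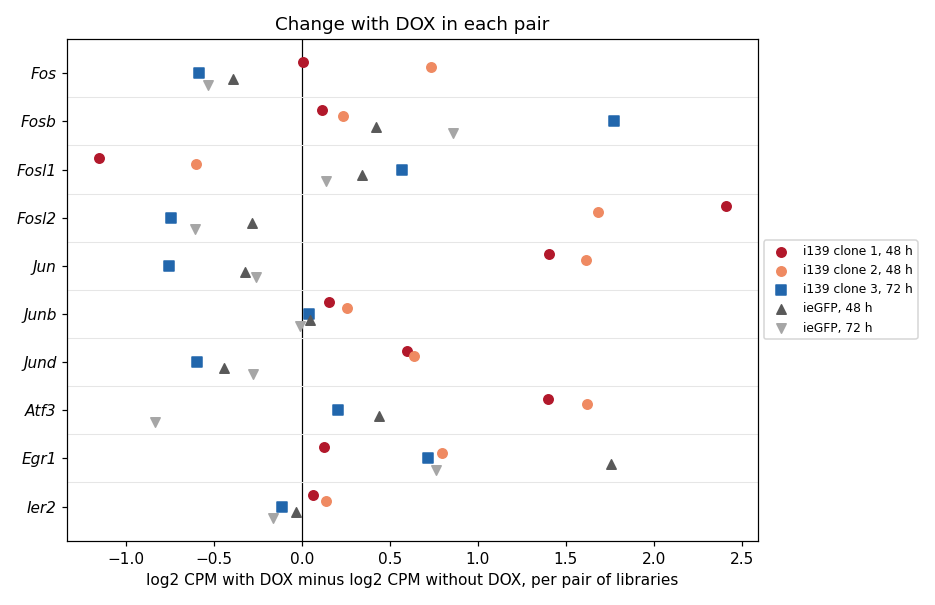
Log2 change with DOX in each pair of libraries (prior count of 2) for the 10 factors, with i139 clones 1 and 2 as circles, clone 3 as squares and the ieGFP pairs as triangles. For Fosl2, Jun and Jund the circles lie to the right of 0 and the 3 other pairs to the left.

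The control clone shows what DOX does with no miR-139 to induce. None of the 10 factors passed the test there with edgeR, as no gene did (0.0% of 20269, with 1.28% at an unadjusted p under 0.05), and DESeq2 called 1 gene, which was no factor (0.00493%). The changes of Jun, Jund and Fosl2 in ieGFP were −0.30, −0.36 and −0.44 on the log2 scale, with standard errors of 0.59, 0.30 and 0.61. These standard errors share their spread with the i139 libraries. With clone 3 left out of the fit, they were 0.17, 0.11 and 0.27, at changes of −0.31, −0.37 and −0.45. No factor was called there, and Jund alone had an unadjusted p under 0.05 (edgeR, 0.0054), as had 324 of 19753 genes. A test of the difference between the DOX changes in i139 and in ieGFP takes the 2 times of the 1 ieGFP clone as replicates. Construct and clone thus cannot be told apart in it. Over all libraries this test called none of the 10 factors (edgeR), and 0.00493% of all genes. At an unadjusted p under 0.05 there were 9.17% of genes and 1 factor, Fosl2, and DESeq2 called 0 factors and 0.405% of genes. Without clone 3, i139 is left at 48 h alone while ieGFP keeps its 72 h pair. The test then called Fosl2 at 2.60, Jun at 1.83 and Jund at 1.01 on the log2 scale, where 10.2% of genes were called. With the 48 h pairs alone, in which ieGFP has 1 library per arm and is assumed to vary like i139, it called Jun and Jund, where 2.69% of genes were called, and Fosl2 had an adjusted p of 0.0533 (edgeR).

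Without DOX, none of the 10 factors passed the test between i139 and ieGFP (edgeR, 0.0444% of genes called, with 2.48% at an unadjusted p under 0.05 and none of the factors among them). DESeq2 called 0 factors as well, and 0.222% of genes. The change nearest to the threshold was that of Ier2, at −0.23 on the log2 scale in i139 against ieGFP with a standard error of 0.12. The starting levels of Jun, 18.2 to 23.9 CPM in i139 and 16.3 to 22.8 CPM in ieGFP, overlapped.

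Leaving out clone 3, 4 of the 10 factors, Fosl2, Jun, Jund and Atf3, were higher with DOX and passed the test, where 11.6% of all genes rose and 21.7% changed in either direction. With the clone also in the model as a block, Junb at 0.22 and Fosl1 at −0.87 on the log2 scale were called too, which made 6 of 10, where 43.4% of genes were called. That fit has 1 residual degree of freedom, so its spread is borrowed almost wholly from other genes. In clone 3 the treated library lay below the untreated one for Jun, Jund and Fosl2. With clone 1 or clone 2 left out in place of clone 3, and no block, 0 factors passed the test (1 of 18014 genes and 0 of 18319). The lowest adjusted p of the 10 factors was then 0.690 and 0.742 (edgeR). The 4 calls thus rest on clones 1 and 2 alone.

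**Figure D3:**
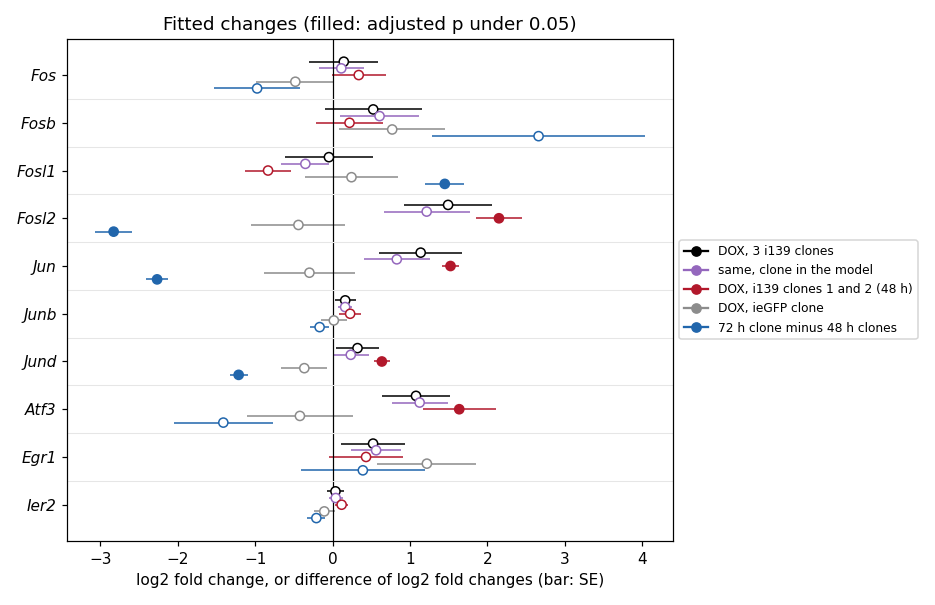
Fitted log2 fold changes with DOX, and the difference between the 72 h clone and the 48 h clones, with bars of 1 standard error and filled points for an adjusted p under 0.05. Over all 3 i139 clones no point is filled, and without clone 3 Fosl2, Jun, Jund and Atf3 are.

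The difference between the response of clone 3 and that of clones 1 and 2 was then fitted directly, each clone against its own untreated library. This test was added after the values, and the split between the clones, were seen. Clone 3 has no replicate, and its standard errors come from the other pairs. Few residual degrees of freedom remain in this fit, so the spread is also largely borrowed from other genes. The test thus sets this clone apart from clones 1 and 2 and cannot speak for other clones or for 72 h. It called 4 of the 10 factors, where 13.9% of all genes were called. Fosl2 differed by −2.83 with a standard error of 0.24, Jun by −2.27 with 0.14, Jund by −1.21 with 0.12 and Fosl1 by 1.45 with 0.25, all on the log2 scale. Fos at −0.97, Atf3 at −1.41 and Fosb at 2.66 did not pass, with standard errors of 0.56, 0.64 and 1.38. At an unadjusted p under 0.05 there were 24.4% of genes. DESeq2 called the 4 factors that edgeR called, and 7.87% of genes, and gave no adjusted p for Fos, Fosb, Atf3 and Egr1.

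Some of these genes overlap others on the opposite strand, and the strand setting of the counting is not given in the sources used here, so reads of such partners cannot be told apart. Of 474 protein-coding genes wholly inside genes of the opposite strand only, with no exon shared, 98.1% were at 0 counts. Whether the factors lost or gained reads where they overlap was not tested. Jun lies with 21.6% of its length inside the body of the antisense gene Junos and shares 7.28% of its exon with exons of that gene. Junos went from 31.7 to 104 CPM in clone 1, from 19.1 to 68.4 in clone 2 and from 17.1 to 37.7 in clone 3. Unlike Jun it was higher with DOX in all 3 clones, with a log2 fold change of 1.64 (edgeR adjusted p = 0.105, and 0.0095 with the clone as a block). In ieGFP its changes were 0.25 and −0.03. The exons of Fosl1 lie to 57.2% within those of Ccdc85b, which was lower with DOX in all 3 clones, by −0.60, −0.72 and −0.28, and so differed in direction from Fosl1 in clone 3. Jund lies to 55.1% inside the span of the antisense gene Gm11175, which had 0 counts in every library. Gm11175 lies wholly within Jund, and 52.6% of the Jund exon is shared with its exons. Reads there cannot be told apart from those of Jund, so its 0 says nothing of its reads. Junb shares 7.52% of its exons with Prdx2, whose changes in clones 1 to 3 were −0.11, −0.10 and −0.03.

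Promoters were searched for AP-1 type sites, since JUN and FOS genes are known to respond to such factors themselves. Of the 10 factors 7 have one in the RefSeq table (GRCm38.p6, 250 bases before to 50 after the start), and Fosl1, Egr1 and Ier2 do not. The AP-1 site TGACTCA, searched on both strands, is in 5.20% of 32851 promoters and in none of the 7, and the cAMP response element TGACGTCA is in 1.79% and in none of the 7. Variants of these sites, whose letters were picked with the promoters in view, are shown for 3 factors with the motif in capitals. TGACATCA is in 3.62% of promoters and lies in that of Jun, at chr4:95052249-95052278 on the minus strand. TACGTCA, or TGACGTA on the other strand, is in 1.27% and lies in those of Atf3, at chr1:191183324-191183353 on the minus strand, and Fos, at chr12:85473813-85473842 on the plus strand. A match is a description of the sequence and says nothing of binding.
Jun: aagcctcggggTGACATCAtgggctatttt
Atf3: attaatagcatTACGTCAgcctgggattgg
Fos: gttccgcccagTGACGTAggaagtccatcc

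The other genes of the pathway were taken as lists. Over the 3 clones none of their genes passed the test, so the counts here come from the fit with the clone as a block, where 12.4% of all genes were called (7.05% higher and 5.33% lower), and from clones 1 and 2 alone. Among 33 further immediate early genes, 27 were tested, 21 had a fold change above 0 and the median was 0.34 on the log2 scale against 0.01 for all genes. With the block 3 rose and 2 fell, and without clone 3 there were 8 that rose and 2 that fell, of 26 tested. In the fit without clone 3, 11.6% of all genes rose, and 1859 of 18359 fell. Dusp1, the phosphatase that switches off MAP kinases, rose with the block, and its log2 changes were 2.06, 2.65 and 0.21 in clones 1 to 3 (edgeR adjusted p = 0.0491 with the block). Btg2, an antiproliferative immediate early gene, rose too, with changes of 1.80, 1.74 and 0.63 (edgeR adjusted p = 0.0245 with the block). Trib1, a scaffold for degradation of C/EBP factors, had changes of 2.20, 1.38 and −0.41, and Ier5, a relative of Ier2, of 0.90, 1.00 and −0.23. Neither was called with the block, and both were without clone 3 (edgeR adjusted p = 0.0082 and 0.0016). Myc and Pim1 of this list were lower with DOX, by means of −0.62 and −0.46 in clones 1 and 2 and by −0.20 and −0.16 in clone 3. In the test of clone 3 against clones 1 and 2, 4 of 27 genes of this list were called higher and 10 lower, where 7.31% of all genes were called higher and 6.56% lower.

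**Figure D4:**
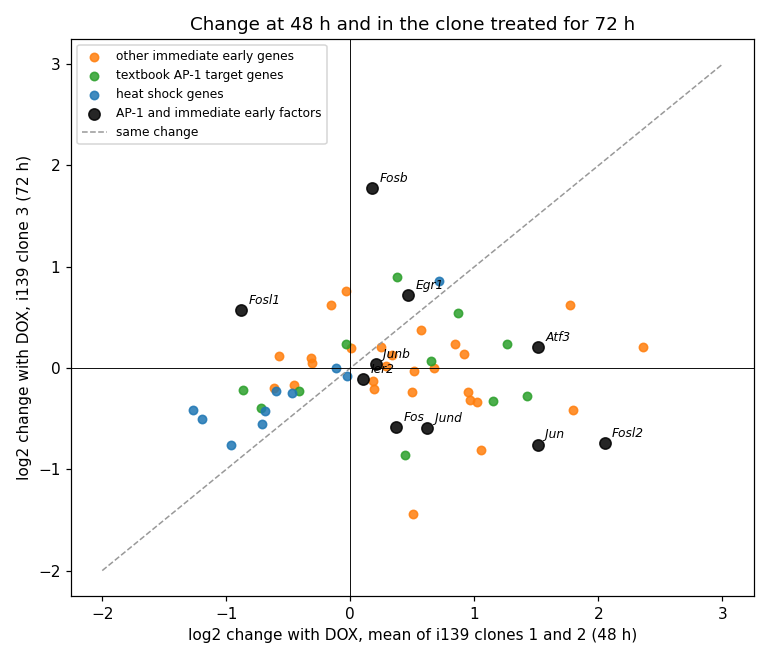
Log2 change with DOX in i139 clone 3 against the mean of clones 1 and 2, for the 10 factors and 3 gene lists, with the line of equal change dashed. Jun, Fosl2, Jund and Fos lie below 0 in clone 3 and above 0 in clones 1 and 2, while most heat shock genes are below 0 on both axes.

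Among 16 further basic leucine zipper factors that can pair with AP-1 proteins or bind like sites, 13 were tested, and the median change was 0.06. Jdp2, a repressor that pairs with JUN proteins, rose with the block (edgeR adjusted p = 0.0154). It had like changes in the 3 clones, of 0.69, 0.78 and 0.63, but also changed by 0.15 at 48 h and 0.45 at 72 h in ieGFP. Creb5, Batf and Mafk had changes of 0.38, −0.38 and 0.19 and were not called. Of 18 tested genes of the kinases and serum response factor partners upstream, 1 rose and 2 fell with the block. Mapk3, the kinase ERK1, rose and changed by 1.17, 1.16 and 0.44 (edgeR adjusted p = 0.0245 with the block), and Map2k6, a p38 kinase activator, fell and changed by −1.39, −1.5 and −0.89 (edgeR adjusted p = 0.0197). Araf and Elk3 had changes of 0.44 and 0.37 and were not called with the block. Srf itself had 0 counts and lies wholly inside other annotated genes, so it was not measured.

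Among 11 tested textbook targets of AP-1 the median change was 0.48, and with the block 1 rose and 2 fell. The summed CPM of 12 measured genes of this list went the other way, from 678 to 759 in untreated i139 to 491 to 626 with DOX. In ieGFP it was 736 to 738 without DOX and 742 to 751 with it. Odc1, with the most counts of the list, had a mean change of −0.86 in clones 1 and 2 and −0.22 in clone 3. Hmox1, heme oxygenase, rose, and changed by 0.84, 0.89 and 0.55 in i139 but also by 0.71 and 0.32 in ieGFP. Vim, the intermediate filament vimentin, fell, and changed by −0.40, −1.04 and −0.40. The urokinase gene Plau had changes of 1.57, 0.95 and 0.23 and its receptor gene Plaur of 1.42, 1.43 and −0.28, and neither was called with the block. In the test of clone 3 against clones 1 and 2 Plaur was called and Plau was not (edgeR adjusted p = 0.08). The heat shock genes, a list of stress genes that does not depend on AP-1 alone, were lower with DOX, with a median of −0.53 and 7 of 10 called lower with the block, among them Hspd1 at −1.11, −1.28 and −0.51, Hsph1 at −0.87, −1.05 and −0.76, Hspe1 and Hsp90aa1.

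Markers of myeloid cells were also followed. Over the 3 clones none of them passed the test. With the block 2 of 8 monocyte and macrophage markers were called higher and 1 lower, 5 of 9 myeloid progenitor markers higher and 1 lower, and 3 of 10 neutrophil markers higher and 0 lower. Of all genes, 7.05% were called higher and 5.33% lower in that fit. The summed CPM of the 8 measured genes of 10 monocyte and macrophage markers was 21.0 to 24.1 in untreated i139 and 28.1 to 72.6 with DOX, and 18.9 to 21.9 across ieGFP. The changes in clones 1 to 3 were 2.48, 2.31 and 0.55 for Lyz2, which encodes lysozyme, and 1.71, 1.01 and 0.81 for Csf1r, the macrophage growth factor receptor. They were 2.20, 1.30 and 0.00 for Adgre1 and 0.94, 1.6 and 0.04 for Cd14. Ccr2, a monocyte chemokine receptor named here after its values were seen, went the other way, with a mean change of −1.36 in clones 1 and 2 and of −1.64 in clone 3. The median changes of this list were 1.08 in clones 1 and 2 and 0.10 in clone 3. The summed CPM of 9 measured myeloid progenitor markers, led by Mpo with changes of 1.66, 1.02 and 1.53, was 1241 to 1432 without DOX and 2505 to 2561 with it. In ieGFP it was 1308 to 1417 and 1499 to 1701. Fcgr3, Fcgr2b and Spi1 of that list had changes of 1.37, 0.90 and 0.67 over the clones, and Hoxa9 had changes of −0.36 both in clones 1 and 2 and in clone 3. The 10 neutrophil markers summed to 1336 to 2171 CPM without DOX and 1338 to 2933 with it, which overlap, and in ieGFP to 1412 to 1898 and 1529 to 2416. The median change of this list was 0.30 in clones 1 and 2 and 0.54 in clone 3, so unlike that of the monocyte list it was not lower in clone 3. Cxcr2 had changes of 4.89, 4.60 and 1.5, and the changes over the clones were 1.34 for Ngp, 1.26 for Csf3r and 0.46 for Ltf. Mmp8 had changes of −0.49 in clones 1 and 2 and −0.33 in clone 3. Of 12 markers of other cells 9 were under 10 counts in total, and the 3 others, Pecam1 among them, gave 23.2 to 30.5 CPM without DOX and 21.9 to 39.3 with it. The part of these markers in the changes of the AP-1 genes was not tested, and in these bulk cultures a change in the share of a cell type and a change of RNA per cell cannot be told apart.

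The genes most like a factor over the 10 libraries were found by the root mean square difference of standardized log2 CPM, among 10672 genes. For Jun they were Kmt2a at 0.16, Rhob at 0.17 and Cpeb2 at 0.21. For Fos, which has few reads, they were Wnk1 at 0.32, Slc35d2 at 0.35 and Nabp1 at 0.39, and for Egr1 they were Raver2 at 0.46, Cfap100 at 0.47 and Nacc2 at 0.52. The pattern of Jun was matched more closely than those of Fos and Egr1, whose counts are low.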

How the data were processed

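Per the labels and the study's methods, the authors depleted ribosomal RNA (KAPA RNA HyperPrep with RiboErase), aligned reads to GRCm38 with STAR 2.5.3e and counted them per gene with featureCounts 1.6.0 on a GENCODE annotation. They deposited raw counts. 14 columns of other samples were not used. IDs were matched to symbols for 52403 of 52550 genes, and positions, 3′ UTRs and overlaps came from a later GENCODE release on GRCm38, so that overlaps may differ from those at counting. The sequences came from RefSeq and GENCODE.

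Counts of 35133308 to 47089725 per library were tested with edgeR 4.0.16 in R 4.3.3 (TMM factors, genes with at least 10 counts, quasi-likelihood test, Benjamini-Hochberg adjustment over all genes). The DOX comparison in MLL-AF9-i139 used its 6 libraries, and the ieGFP, interaction and untreated comparisons a fit of 4 groups over 10 libraries. The comparison of clone 3 with clones 1 and 2 used a fit with a term for each pair of libraries and for DOX in clones 1 and 2, in clone 3 and in ieGFP. CPM are TMM normalized, and log2 changes of single pairs use a prior count of 2. Fold changes of genes with few counts are therefore drawn toward 0 in single pairs. Poisson intervals cover counting error only, and reads carry no molecular identifiers. Nothing states that the time points of ieGFP came from separate cultures, so p-values there measure the spread between libraries.

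Clone numbers pair the i139 libraries, which come from the same clone. Deviations of the 2 libraries of a clone correlated at 0.29 to 0.41 after the group means were removed. The mean of −0.18 between clones follows from removing the mean of 3 libraries, so it is no separate reference. The alternatives were RLE size factors, other filters, DESeq2 1.42.0, the clone as a block, 1 fit over every library, and each library pair left out. The genes named are all 10 factors, up to 4 genes per list (those past the threshold, then the largest changes with an average log2 CPM of at least 1), and 3 genes most like Jun, Fos and Egr1. The other genes, and the overlapping ones, were named after their values were seen. The factors and lists were chosen with earlier results of these data known. The scripts were tested on simulated data.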

Additional observations from a re-analysis of the deposited data

Results flagged for a closer look

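In 4 of the 10 factors the response to DOX in the clone treated for 72 h stood apart from that in the clones treated for 48 h, by a test of the difference itself (edgeR). The test was prompted by the split already seen in these data, so it is no independent support for it. The differences on the log2 scale, 72 h clone minus 48 h clones, were −2.83 for Fosl2, −2.27 for Jun, −1.21 for Jund and 1.45 for Fosl1. Both 48 h clones moved one way and the 72 h clone the other in each of the 4. Across the alternatives tried the differences ranged from −3.17 to −2.45 for Fosl2, from −2.38 to −2.17 for Jun, from −1.24 to −1.19 for Jund and from 1.18 to 1.74 for Fosl1, all of which rest on the same unreplicated clone. The 72 h response comes from 1 clone, so clone and time cannot be told apart. The groups hold 2 or 3 libraries, so no library was checked for standing apart within its group.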

How the results depend on the processing

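In MLL-AF9-i139, leaving out 1 clone at a time gave 0 to 4 factors called, with the 4 only without clone 3, and 6 with the clone as a replicate block and no clone 3. The interaction of DOX and construct called 0 to 3 factors with 1 library pair left out, again 3 only without clone 3, and 2 with the 48 h pairs alone. The block, which the pairing of the clones allows, changed no call of a factor with all clones in the fit. In the companion lists, which name 139 genes, 0 genes were called over the 3 clones. There were 31 with the replicate block (12.4% of all genes called) and 26 with DESeq2 (8.09%). With all 10 libraries in 1 fit there were 22 (1234 of 20269 genes), and with no filter on low counts 18 (562 of 25840). With 1 clone left out there were 0 to 45 (21.7% of all genes without clone 3), and 70 with the block and no clone 3 (43.4%). These fits differ in the samples, filter or spread used.

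With 1 library pair left out the direction of some small changes turned, and no such value was called. In i139 these were Fos (−0.16 to 0.34), Fosl1 (−0.83 to 0.20) and Ier2 (−0.017 to 0.12). In ieGFP they were Junb (−0.023 to 0.052) and Atf3 (−0.93 to 0.54), and in the interaction Fosb (−0.54 to 0.021). Between the untreated constructs they were Fos (−0.51 to 0.015), Fosb (−0.38 to 0.40), Fosl2 (−0.20 to 0.15), Jun (−0.14 to 0.31), Junb (−0.26 to 0.11), Atf3 (−0.77 to 1.18) and Egr1 (−0.60 to 1.59), and for the 72 h clone against the 48 h clones Egr1 (−0.10 to 0.69).

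Per kilobase of gene body in place of exons the level of Fosl1 was 0.618, of Fosl2 0.283, of Junb 7.49 and of Atf3 0.00842, and Atf3 then stood last of the 10. Filters, RLE size factors and DESeq2 changed no call of a factor in any comparison they were run on, though a minimum of 10 counts in every library left 7 factors to test. Fos, Fosb, Atf3 and Egr1 rest on few counts, which limits what their tests can show.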
